A study of Bos taurus with 8 samples.

Results

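The genes described here are 10 bovine genes that break down the extracellular matrix around a cell or restrain its breakdown, namely MMP1, MMP2, MMP3, MMP9, MMP13, MMP14, TIMP1, TIMP2, TIMP3 and PLAU. They were chosen by name, and a probe was assigned to a gene when the RefSeq accession printed beside it belonged to that gene. All 10 were represented, by 28 probes, among 12602 genes with a named probe. MMP1, MMP3, MMP9, MMP13, TIMP3 and PLAU had 3 probes each, as did TIMP2, while MMP2 had 4, TIMP1 had 2 and MMP14 had 1.

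Matrix metalloproteinases (MMPs) are zinc-dependent enzymes that are made as inactive precursors and, once cleaved, cut collagens and other matrix proteins outside the cell. Tissue inhibitors of metalloproteinases (TIMPs) bind the active enzymes and block them, and urokinase (PLAU) turns plasminogen into plasmin, a broad protease that can also activate MMP precursors. In embryos of mammals these genes are known for their part in trophoblast growth and implantation, and in connective tissue fibroblasts they are known for turnover of collagen.

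RNA of 8 cell samples from HanWoo cattle was hybridized with 1 dye to Agilent bovine arrays, 1 sample per array. Embryo-derived stem-like cells (eSLCs) were grown from blastocysts made by in vitro production (IVP-eSLCs, line I2 at passage 35 and line I9 at passage 30), by somatic cell nuclear transfer (NT-eSLCs, N2 at passage 36 and N7 at passage 30) or by parthenogenesis (PA-eSLCs, P1 at passage 31 and P4 at passage 36). Every eSLC line was kept on inactivated murine STO feeder cells in serum-free medium with the MEK inhibitor PD184352, the FGF receptor inhibitor SU5402 and the GSK3 inhibitor CHIR99021, and colonies were split by hand. Somatic cells (SCs) at passage 5 (SC P5) and passage 10 (SC P10) were grown in DMEM with fetal bovine serum and no inhibitors, so cell type and medium cannot be told apart between eSLCs and SCs. The tissue of the SCs is not given in the labels, and each eSLC line stands for 1 derivation. Nothing says that SC P5 and SC P10 came from separate cultures, so the spread between the SC arrays may be technical only. The p-values rest on that spread pooled with the spread between lines of the same origin.

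Signals are given as normalized signal, the background-subtracted signal scaled so that the 75th percentile of every array is 1000. Values below 13.3, the highest of the lowest reliable signals of the 8 arrays, were raised to this floor, and values at the floor have no order. Between 71.2% and 76.7% of spots were well above background on each array and 0 were saturated. Slide 1 held both IVP lines, N7 and SC P5, and slide 2 held both PA lines, N2 and SC P10. IVP- and PA-eSLCs therefore differed in slide as well as in origin, and the SC arrays differed in slide as well as in passage. The brightest probe by mean log2 signal stood for a gene, and levels of different probes were not set against each other.

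The labels were compared with marker genes. Of 11 fibroblast genes, 10 were called lower in eSLCs than in SCs, and their summed normalized signal was 5565 to 10740 in eSLCs and 513500 to 613400 in SCs. Of 10 trophectoderm genes tested, 9 were called higher in eSLCs, with sums of 419300 to 1070000 in eSLCs and 17610 to 17820 in SCs. Over all genes tested, 15.7% were called lower and 19.7% higher. FBN1 entered the test through SCs alone, and CDX2, ELF5 and CDH1 through eSLCs alone. When genes had to be above background on all 8 arrays, 7 fibroblast genes were lower and 6 trophectoderm genes higher. Summed epiblast genes lay at 311 to 1339 in eSLCs and 516 to 617 in SCs, where SOX2 alone read 459.4 and 551.2. Of 4 epiblast genes tested, LIN28A was called higher and SOX2 lower in eSLCs, and POU5F1 and NANOG were not called. LIN28A was not above background in SCs and entered through eSLCs alone. The name eSLC is used as the labels give it. Line N7 stood apart in 3 of the 6 hypoblast genes with a probe, a feature chosen here after the values were seen. Its normalized signal was 9035 for HNF4A against at most 23.4 on the other 7 arrays, 112800 for APOA1 against at most 6824, and 2922 for GATA4 against at most 180. The other hypoblast genes did not stand out in N7, with SOX17 at 2667 against 1908 to 2949 in the other eSLC lines, AFP at 15.9 against 20.1 to 26.8 and TTR at 22.2 against 22.7 to 33.2. The part of these cell types in the results was not tested, and in bulk RNA fewer cells of a type and less RNA per cell cannot be told apart. Murine feeder RNA was not measured separately.

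In eSLCs against SCs, 4 members were lower and 0 were higher among the 9 members tested, where 35.4% of all 10956 genes tested were called, 15.7% lower and 19.7% higher. The 4 were the gelatinase MMP2, the membrane-type protease MMP14 and the inhibitors TIMP1 and TIMP2. MMP9 was above both SC arrays in every eSLC line but was not called, and its lines differed 71.1-fold. TIMP3 varied even more, 195-fold over the lines. A gene was called when limma's Benjamini-Hochberg adjusted p over all genes was under 0.05 and the difference at least 2-fold. The median log2 difference was -2.38 over the 9 members and 0.23 over all genes tested. The median over all genes was 0.12 with quantile normalization and 0.067 in the authors' own normalized values.

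**Figure D1:**
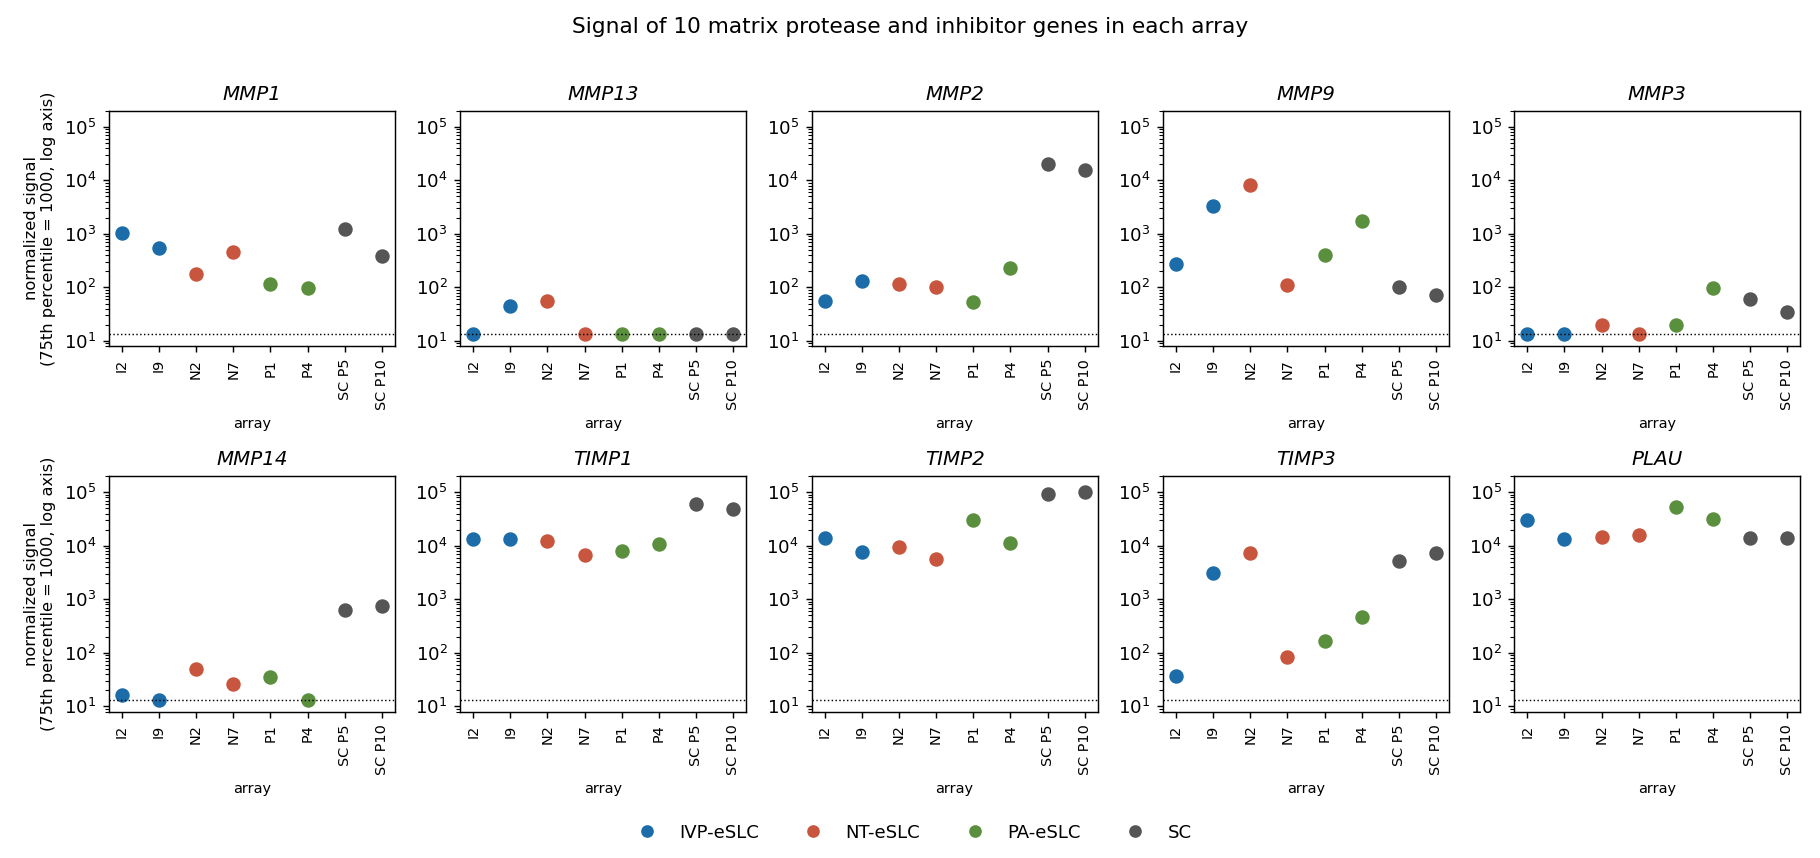
Normalized signal (log axis, 75th percentile of each array set to 1000) of the probe used for each of the 10 genes, 1 point per array, coloured by condition, with a dotted line at the floor of 13.3. MMP2, MMP14, TIMP1 and TIMP2 lay higher in both SC arrays than in all 6 eSLC arrays, while MMP9 and TIMP3 spread over 71.1-fold and 195-fold among the eSLC lines.

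MMP1 and MMP13 are collagenases, which cut the triple helix of fibrillar collagen. The normalized signal of MMP1 was 1041 in I2, 533.7 in I9, 181.3 in N2, 451 in N7, 117.3 in P1 and 99.4 in P4, and 1228 in SC P5 and 385.7 in SC P10. Both IVP lines and N7 lay between the SC arrays, while N2, P1 and P4 lay below both. This depended on the probe. On the next brightest probe I9 at 226.8 and N7 at 240.2 lay below both SC arrays, at 1064 and 421.2. The log2 difference of eSLCs from SCs was -1.27 (SE 0.570, n = 6 and 2, limma adjusted p = 0.115), and the other 2 probes differed by -1.70 and -2.25. The call depended on the handling of the data, since MMP1 was called lower with the mean of its probes (-1.74, adjusted p = 0.0243) and with the slide as a block (-1.28, adjusted p = 0.0249). Within slide 1 the difference was -1.08 and within slide 2 it was -1.45.

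Among origins, MMP1 fell in PA-eSLCs against SCs, by 2.67 on the log2 scale (SE 0.699, limma adjusted p = 0.0267). Its difference from SCs was 0.12 in IVP-eSLCs and -1.27 in NT-eSLCs, neither called. The PA call did not pass without I2, P1, P4 or SC P5 (limma adjusted p = 0.0502, 0.105, 0.132 and 0.149, and 0.0176 to 0.163 over all alternatives). On the probe used for MMP1 every array of slide 1 read above every array of slide 2, the closest being N7 at 451 and SC P10 at 385.7. The next brightest probe did not split by slide, with SC P10 at 421.2 above I9 at 226.8 and N7 at 240.2. Both PA lines were on slide 2, while the SC mean was taken over both slides. With the slide as a block the PA difference was -1.93 (limma adjusted p = 0.0257). Within slide 2, against SC P10 only, it was -1.60. Between PA- and IVP-eSLCs MMP1 differed by -2.79 without passing the correction (limma adjusted p = 0.852), with both PA lines below both IVP lines, as arrays were apart in 1 direction or the other for 35.1% of all genes tested. The other probes of MMP1 differed by -1.17 and 0 between PA- and IVP-eSLCs, the latter at the floor on every eSLC array.

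MMP13 was near the limit of detection. It was at the floor in I2, N7, P1, P4 and both SC arrays, and read 45.5 in I9 and 56.5 in N2. On 3 of 6 eSLC arrays, I9, N2 and P4, and on 0 of 2 SC arrays was any MMP13 probe well above background. The gene was not tested because no condition had it above background on both arrays. The other 2 probes read highest in the same lines, at 15.8 and 22.1 in I9 and 15.6 and 27.5 in N2.

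MMP2 and MMP9 are gelatinases, which digest denatured collagen and the type IV collagen of basement membranes. MMP2 read 56.8 in I2, 129.4 in I9, 116 in N2, 101.1 in N7, 54.4 in P1 and 228.5 in P4, and 20460 in SC P5 and 15680 in SC P10. Every eSLC array lay far below both SC arrays. MMP2 fell by 7.47 on the log2 scale (SE 0.589, limma adjusted p = 0.000255), a 177-fold difference. Its 4 probes gave -5.47, -6.80, -7.47 and -8.81, the smallest of them from a probe at the floor on 5 of 6 eSLC arrays. The difference was -7.78 within slide 1 and -7.11 within slide 2, and -7.71, -7.37 and -7.33 for IVP-, NT- and PA-eSLCs against the same SC arrays.

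MMP9 read 273.2 in I2, 3275 in I9, 8040 in N2, 113 in N7, 398.5 in P1 and 1747 in P4, and 103.8 in SC P5 and 70.95 in SC P10. N2, I9 and P4 were high, P1 and I2 intermediate, and N7 lay only just above SC P5. All 6 eSLC arrays lay above both SC arrays, as arrays did in 1 direction or the other for 57.6% of all genes tested. The log2 difference was 3.41 (SE 1.77, limma adjusted p = 0.162), 10.6-fold, and was not called. Without N7 it was 4.43 and was called (adjusted p = 0.0342). It was 1.66 within slide 1 and 5.19 within slide 2, neither called. For IVP-, NT- and PA-eSLCs against SCs the differences were 3.46, 3.47 and 3.28, each with a standard error of 2.16, and in every origin 1 line was high and the other low.

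The other 2 MMP9 probes showed the same order of the lines. The second probe read 1269 in N2, 559.4 in I9, 252 in P4, 64.1 in P1 and 23.9 in I2, and was at the floor in N7 and in both SC arrays. The third probe was above the floor in N2, I9 and P4, at 156.5, 96.4 and 16.2. Neither of these 2 probes was well above background in SCs. The log2 differences of the 3 probes were 3.41, 3.22 and 1.12.

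**Figure D2:**
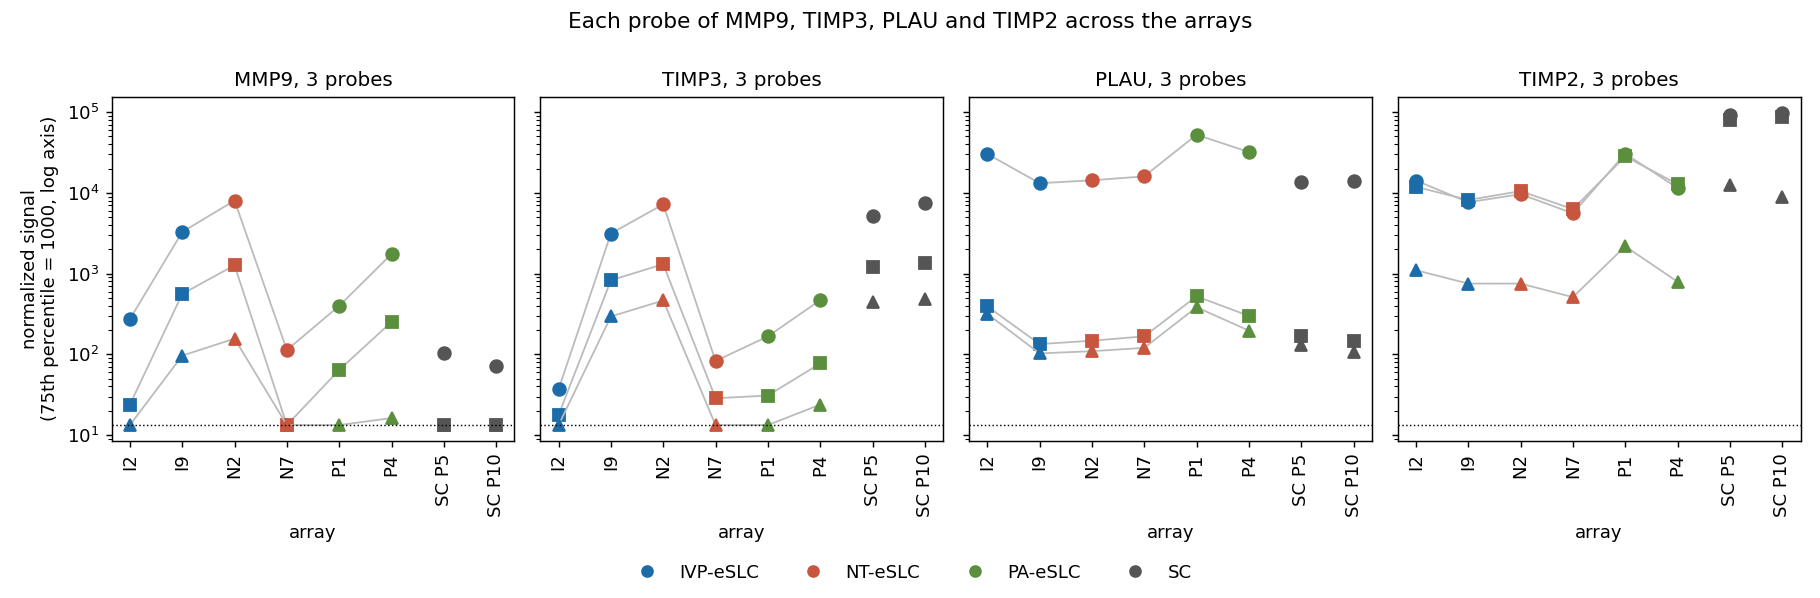
Normalized signal (log axis) of every probe of MMP9, TIMP3, PLAU and TIMP2 in each array, with a marker shape per probe, grey lines joining the eSLC arrays of a probe and a dotted line at the floor. All 3 probes of MMP9 and of TIMP3 were highest in N2 and I9 among eSLCs, and all 3 probes of PLAU and of TIMP2 were highest in P1.

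MMP9 was also the member for which the deposited sources differed most. In the authors' table of normalized values, scaled here in the same way, the brightest MMP9 probe read 294.4 in I2, 216.6 in I9, 11800 in N2, 3427 in N7, 2076 in P1 and 3031 in P4, and 116.8 in SC P5 and 184.4 in SC P10. I9 thus changed from high to low and N7 from low to high. In that table the second MMP9 probe kept the order of the scanner signal, with 750.9 in I9 and the floor in N7. The third was above the floor in the same 3 lines, with I9 at 129.4 above N2 at 118.9. After the median shift of a probe was removed, 6 of the 28 member probes had an array that departed by more than 1 on the log2 scale between the sources, as did 16.5% of all probes. These 6 probes were of MMP1, MMP2, MMP9, MMP14, PLAU and TIMP2. MMP9 departed by up to 4.59 in I9 and MMP14 by up to 3.70 in N2. This comparison was chosen after seeing the data, and its cause was not tested.

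**Figure D3:**
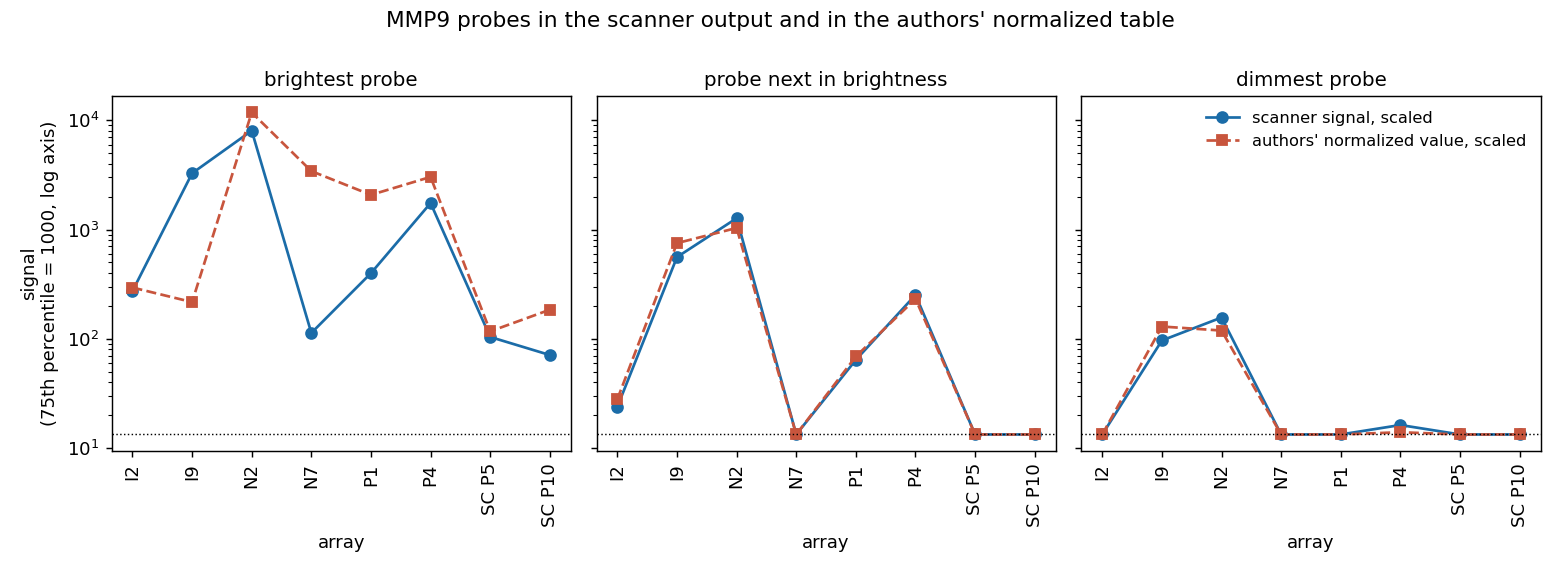
Signal (log axis, 75th percentile of each array set to 1000) of the 3 MMP9 probes in each array, from the scanner output (blue circles) and from the authors' normalized table (red squares), with the floor dotted. The sources gave the same pattern for the 2 dimmer probes and differed for the brightest, most in I9 with 3275 against 216.6 and in N7 with 113 against 3427.

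MMP3, or stromelysin, cleaves proteoglycans and activates other MMP precursors. It was at the floor in I2, I9 and N7, read 19.7 in N2, 19.7 in P1 and 99.1 in P4, and 60.7 in SC P5 and 34.7 in SC P10. P4 was higher than both SC arrays, while the other 5 eSLC arrays were below both. The log2 difference was -1.12 (SE 0.613, limma adjusted p = 0.183) and was not called, but without P4 it was -1.50 and was called lower (adjusted p = 0.0244). It was -2.19 within slide 1 and -0.23 within slide 2, the slide that held P4. IVP-eSLCs, at the floor on both arrays, were at least 3.45-fold lower than SCs, but the difference was not called (limma adjusted p = 0.112). Of the other probes, 1 was not well above background on any array and 1 was so only in SCs, at 51.1 and 34.4, and it was at the floor in P4 too.

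MMP14 is a membrane-anchored protease that activates the MMP2 precursor at the cell surface together with TIMP2. It read 16.1 in I2, 49.7 in N2, 26.1 in N7 and 36.1 in P1, was at the floor in I9 and P4, and read 624.8 in SC P5 and 756.4 in SC P10. The groups did not overlap, as arrays did not for 57.6% of all genes tested. MMP14 fell by 4.93 on the log2 scale (SE 0.436, limma adjusted p = 0.000401), 30.4-fold. The size of this fall depends on the handling of dim signals, since with normexp background correction it was -3.635 (limma adjusted p = 0.000338). The main difference was -5.00 within slide 1 and -4.52 within slide 2. The result rests on the only probe of the gene, whose value in the authors' table was 890.9 in N2 and 309.7 in N7. With those values the NT-eSLC difference from SCs was -0.85 in place of -4.26 and was no longer called (adjusted p = 0.522).

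TIMP1, TIMP2 and TIMP3 are inhibitors, of which TIMP3 is held in the matrix and also blocks ADAM proteases. TIMP1 read 13250 in I2, 13260 in I9, 12480 in N2, 6607 in N7, 8115 in P1 and 10720 in P4, and 60090 in SC P5 and 48500 in SC P10. The eSLC lines lay within 2.01-fold of each other, the narrowest range of the 10 genes, and all below both SC arrays. TIMP1 fell by 2.38 on the log2 scale (SE 0.281, limma adjusted p = 0.00122), 5.19-fold, and its second probe differed by -2.52. The differences were -2.68 within slide 1 and -2.17 within slide 2. In IVP-eSLCs alone the difference was -2.03, and its call did not pass without SC P5 (-1.87, limma adjusted p = 0.0609).

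TIMP2 read 14210 in I2, 7658 in I9, 9634 in N2, 5580 in N7, 30580 in P1 and 11500 in P4, and 93150 in SC P5 and 98980 in SC P10. P1 was the highest eSLC line and still below both SC arrays. TIMP2 fell by 3.09 on the log2 scale (SE 0.456, limma adjusted p = 0.0029), 8.51-fold, with -3.54 and -2.87 for its other probes, -3.61 within slide 1 and -2.64 within slide 2. By origin it differed by -3.20 in IVP-, -3.71 in NT- and -2.36 in PA-eSLCs. These origin calls were less stable than the one over all eSLCs. Without SC P10 the IVP and NT calls did not pass (adjusted p = 0.0677 and 0.0522), and the PA call did not pass without P4 (-1.65, adjusted p = 0.0861), without SC P5 (adjusted p = 0.0846) or without SC P10 (adjusted p = 0.113).

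TIMP3 read 37 in I2, 3137 in I9, 7216 in N2, 82.7 in N7, 166.7 in P1 and 468.9 in P4, and 5190 in SC P5 and 7443 in SC P10. N2 lay between the SC arrays, I9 was within 2-fold of SC P5, and the other 4 lines were far below. The log2 difference was -3.89 (SE 2.19, limma adjusted p = 0.191), and its other 2 probes gave -3.63 and -3.38. It was not called under any of the 21 alternatives tried, in which it lay between -4.97 and -2.39. The range over the 6 eSLC arrays was 7.61 on the log2 scale, larger than that of all but 13 of the 10416 genes tested that were well above background on at least 4 of them, whose median range was 0.95. For MMP9 the range was 6.15, and 48 genes had a larger one.

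The order of the lines was alike for the pair. For MMP9 it ran N2, I9, P4, P1, I2, N7 and for TIMP3 N2, I9, P4, P1, N7, I2, with a Pearson r of 0.941 over the 6 lines, given as a description because each point is 1 array. In both cases I9 and N2 were far above the other line of the same origin, and those lines were on slide 1 for IVP and on different slides for NT. MMP13 was above the floor in the same lines, I9 and N2. The genes most like TIMP3 over the 6 lines were IL11RA (r = 0.996), ARHGAP32 (r = 0.993) and RHOD (r = 0.991) of 10416 compared. IL11RA, a cytokine receptor, read 16500 in I9 and 20390 in N2 and 6456 to 10500 in the other lines. The genes most like MMP9 were TM9SF2 (r = 0.994), UQCC6 (r = 0.994) and PEA15 (r = 0.993). Their spread was smaller, with TM9SF2 at 22950 in I9, 26090 in N2 and 13230 to 19820 in the other lines.

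PLAU encodes urokinase. It read 30430 in I2, 13180 in I9, 14320 in N2, 16000 in N7, 52540 in P1 and 32090 in P4, and 13760 in SC P5 and 14180 in SC P10. P1, P4 and I2 were high, N2 and N7 lay just above the SC arrays, and I9 just below. The log2 difference was 0.73 (SE 0.359, limma adjusted p = 0.144) and was not called. In PA-eSLCs PLAU rose by 1.56 (SE 0.439, limma adjusted p = 0.0341), 2.94-fold, the only member called higher in any comparison with SCs. That call was lost in 14 of 21 alternatives, including those without N2, N7, P1, P4, SC P5 or SC P10 (limma adjusted p = 0.0542 to 0.164) and with the slide as a block (1.59, adjusted p = 0.0818), and within slide 2 the difference was 1.53. The differences were 0.52 in IVP- and 0.12 in NT-eSLCs. All 3 probes were highest in P1 and next highest in I2 or P4. Over the 6 lines PLAU and TIMP2 had a Pearson r of 0.886, with P1 highest for both.

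**Figure D4:**
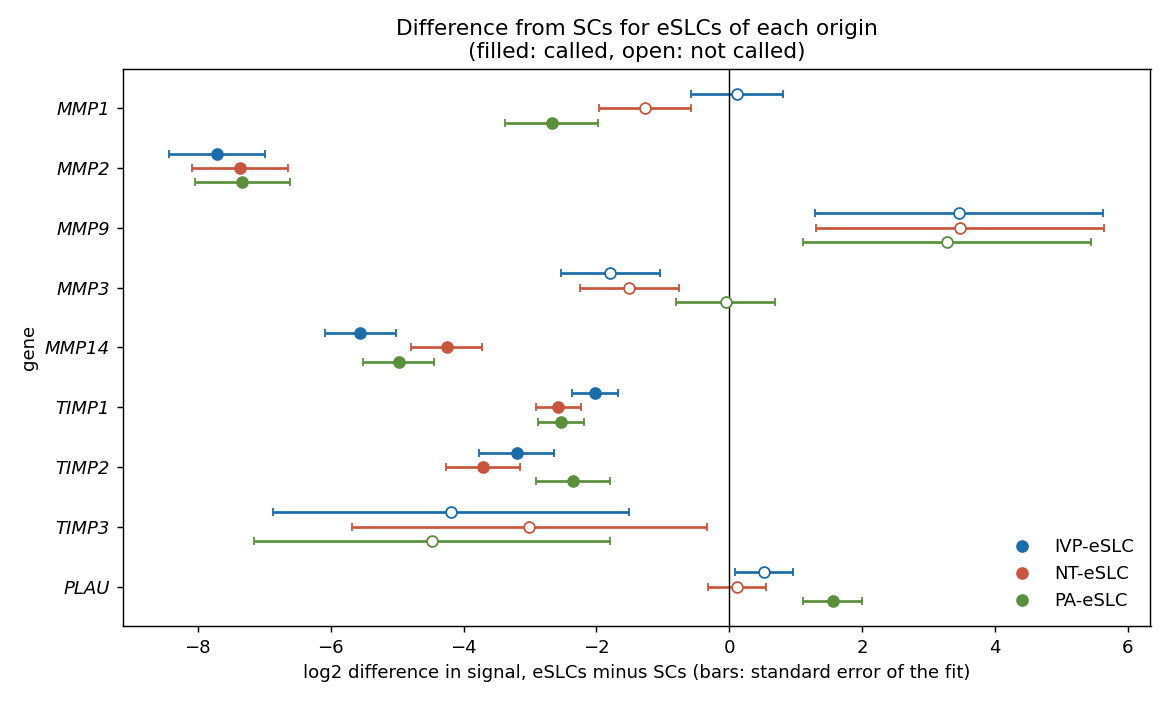
Log2 difference in signal from SCs (x axis) of the 9 members tested, for eSLCs of each origin (n = 2 arrays each) against the same 2 SC arrays, with the standard error of the limma fit as bars and called genes filled. MMP2, MMP14, TIMP1 and TIMP2 were called lower in all 3 origins, MMP1 lower and PLAU higher only in PA-eSLCs, and the bars of MMP9 and TIMP3 are the widest, with standard errors of 2.16 and 2.68.

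Each origin was also compared with SCs on its own, and these comparisons share the SC arrays. In IVP-eSLCs 4 members were lower and 0 higher, where 32.3% of all genes were called, 14.6% lower and 17.7% higher. In NT-eSLCs 4 were lower and 0 higher, where 29.8% were called, 13.9% lower and 15.8% higher. In PA-eSLCs 5 were lower and 1 higher, where 35.3% were called, 14.9% lower and 20.3% higher. MMP2, MMP14, TIMP1 and TIMP2 were lower in each, and MMP1 and PLAU were added in PA-eSLCs. That MMP1 and PLAU were called in PA-eSLCs and not in the others does not show a difference between origins.

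Between origins no member was called. NT-eSLCs against IVP-eSLCs gave 0 of 9 members by limma, against 0% of all genes, and 0 members had an unadjusted p under 0.05, as 307 genes had. PA-eSLCs against IVP-eSLCs also gave 0 of 9, against 0% of all genes, and 1 member, MMP1, had an unadjusted p under 0.05, as 567 genes had. PLAU differed by 1.04 between PA- and IVP-eSLCs (SE 0.439) and TIMP2 by 0.85 (SE 0.559), both with an adjusted p above 0.85. MMP14 differed by 1.30 between NT- and IVP-eSLCs (SE 0.534, adjusted p = 1). Slide and origin cannot be told apart between PA- and IVP-eSLCs.

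The other genes of matrix breakdown were read in lists. Of 16 other MMPs, 5 were tested, of which 2 rose and 3 fell in eSLCs, with a median log2 difference of -2.70 against 0.23 over all genes. MMP7, MMP16 and MMP27 entered the test through SCs alone, so their falls follow in part from the filter. When genes had to be above background on all 8 arrays, 2 of the list rose and 0 fell. MMP15, a membrane-type protease like MMP14, rose by 6.62 (SE 0.406), from 85 and 59.4 in the SC arrays to 2795 in N7 and 12130 in I2, its lowest and highest lines. MMP19 rose by 1.30 (SE 0.325). MMP16 fell by 3.28 (SE 0.169). MMP27 and MMP7 fell too and were not above background in any eSLC array, at least 9.41-fold and 6.48-fold lower than in SCs. In the RefSeq table MMP13, MMP12, MMP3 and MMP1 lie next to each other, with MMP8, MMP27, MMP20 and MMP7 after 2 further genes. MMP12, a macrophage elastase, was not tested, but read 53 in I9 and 155.5 in N2, 15.2 in P4, 37.1 in SC P5 and the floor elsewhere. Of the neighbours, MMP1, MMP7 and MMP27 read higher in SC P5 than in SC P10, at 1228 and 385.7, 160.9 and 46.2, and 233.2 and 67.1.

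Of 4 other inhibitors, 0 rose and 3 fell, and 0 rose and 1 fell when genes had to be above background on all 8 arrays. TFPI2, a Kunitz inhibitor of plasmin and MMPs, fell by 6.21 (SE 0.828) and TIMP4 fell by 3.70 (SE 0.391). RECK, a membrane-anchored MMP inhibitor, was not above background in eSLCs and was at least 8.11-fold lower. A2M, a broad trap for proteases, differed by -0.14 and was not called. With TIMP1 and TIMP2, 5 of the 7 MMP inhibitor genes tested were lower in eSLCs, where 15.7% of all genes tested were called lower. TIMP3 and A2M were not called. RECK, counted among the 5, entered the test through SCs alone. TIMP4, also among the 5, was above background on 4 of 6 eSLC arrays, so neither passed the filter on all 8 arrays.

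Of 10 genes of plasminogen activation beside PLAU, 1 rose and 5 fell, and with the filter on all 8 arrays 1 rose and 4 fell. SERPINI1, a serpin that inhibits plasminogen activators, rose by 3.30 (SE 0.268). SERPINE2, another serpin that inhibits plasminogen activators, fell by 5.65 (SE 0.508). The tissue-type activator PLAT fell by 4.84 (SE 1.11). The urokinase receptor PLAUR was not called, with a log2 difference of -3.13 (SE 1.22, limma adjusted p = 0.0805). It read 2373 in I9, 3061 in N2, 900.4 in P4, 440.1 in P1, 293.7 in I2 and 194.7 in N7, the same order of lines as MMP9, below 5298 in SC P5 and 7891 in SC P10.

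**Figure D5:**
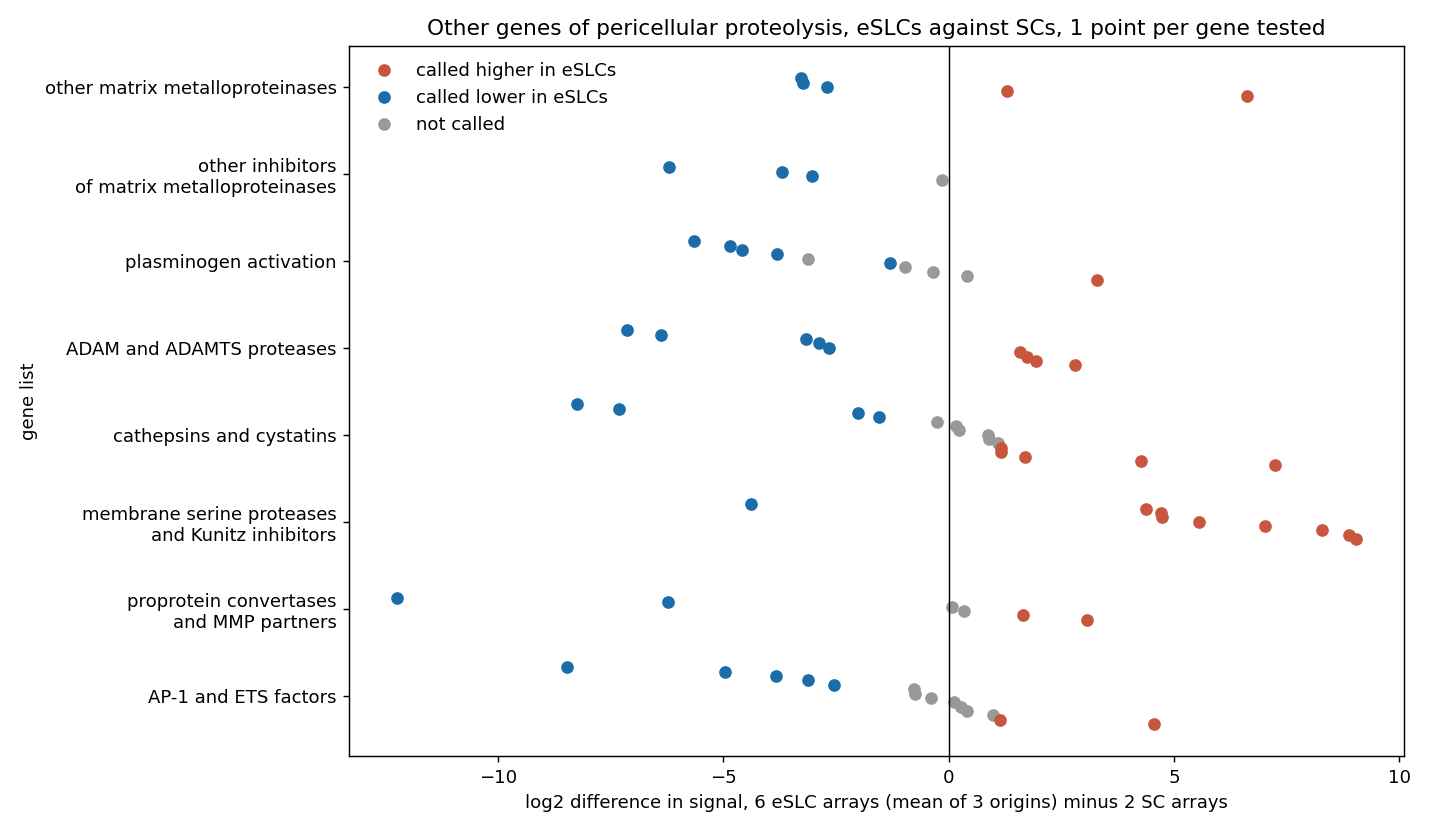
Log2 difference in signal between eSLCs and SCs (x axis) of the other genes tested in 8 lists, 1 point per gene, red for genes called higher in eSLCs, blue for genes called lower and grey for genes not called. Membrane serine proteases and their Kunitz inhibitors had 8 of 9 genes higher, and 0 of 4 other MMP inhibitors were higher.

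Membrane serine proteases and Kunitz inhibitors went the other way, with 8 of 9 higher and 1 lower and a median log2 difference of 5.55. HPN, TMPRSS2, TMPRSS4 and DPP4 were not above background in SCs and entered through eSLCs alone. With the filter on all 8 arrays, 4 were higher and 1 lower. SPINT1, which inhibits matriptase, rose by 9.04 (SE 0.310), prostasin (PRSS8) by 8.90 (SE 0.278) and matriptase (ST14) by 8.28 (SE 0.290). ST14 read 19240 to 30430 over the eSLC lines and 105.3 and 56.2 in SCs. These genes are known from epithelia and their rise accompanied that of the trophectoderm markers, whose part in it was not tested. FAP, a serine protease of activated fibroblasts, fell by 4.37 (SE 0.230).

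Of 9 ADAM and ADAMTS proteases, 4 rose and 5 fell, and with the filter on all 8 arrays 4 rose and 4 fell. ADAMTS1 rose by 2.80 (SE 0.421), ADAMTS9 by 1.95 (SE 0.375) and ADAM9 by 1.74 (SE 0.203). ADAMTS2, which trims procollagen, fell by 7.13 (SE 0.735). ADAMTS4 fell by 3.17 (SE 0.287). ADAM12, not above background in any eSLC array, entered through SCs alone and was at least 82.8-fold lower. Of 15 cathepsins and cystatins, 5 rose and 4 fell. Among lysosomal proteases CTSK fell by 8.24 (SE 0.736), CTSS fell by 7.31 (SE 0.314) and CTSC fell by 2.00 (SE 0.340). CTSL rose by 7.24 (SE 0.705), from 187.4 and 186 in SCs to 55550 in I9 and 94260 in N2 and 12990 to 22810 in the other lines. The cystatins CSTA and CST3 rose by 4.27 (SE 1.32) and 1.69 (SE 0.316).

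Of 6 convertases and partners of MMPs, 2 rose and 2 fell, and with the filter on all 8 arrays 2 rose and 0 fell. FURIN, a convertase that cleaves the MMP14 precursor, rose by 3.06 (SE 0.413), and BSG, a surface protein that induces MMPs, by 1.65 (SE 0.295). CAV1, the coat protein of caveolae, fell by 12.23 (SE 0.371), and CD44, a hyaluronan receptor that can hold MMP9, fell by 6.23 (SE 1.17). CD44 was higher in I9 and N2, at 171.4 and 218.7, than in the other lines, at most 35.6. Of 14 AP-1 and ETS factors, 2 rose and 5 fell, and with the filter on all 8 arrays 2 rose and 3 fell. These bind promoters of MMP genes. The epithelial ETS factor ELF3 rose by 4.57 (SE 0.332) and ELK1 by 1.14 (SE 0.226), while ETV1 fell by 8.46 (SE 0.259), ETV5 fell by 4.97 (SE 0.248) and ETS1 fell by 3.83 (SE 0.194). Most eSLC arrays were at the floor for CAV1, ETV1, ETV5 and MMP16, so that these values depend on it. FOS and JUN were not called, with log2 differences of -0.75 and -0.78.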

How the data were processed

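The authors hybridized cRNA amplified from the RNA of 8 samples to Agilent bovine arrays and read them with Feature Extraction version 11.5.1.1. The deposited scanner files hold linear signal intensity per spot, with no normalization between arrays. The deposited series table holds the authors' normalized intensities from GeneSpring GX, on a linear scale by comparison with the scanner signal (Spearman 0.96 to 0.98 per array, column medians 118.7 to 500.5), with centring between arrays not given in the sources used here.

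The background-subtracted signal was used, because the processed signal followed it in I2 and N2 (Spearman 0.973 and 0.971) and not in the other 6 files (0.161 to 0.216). Control spots and 1 to 11 outlier spots per array were left out, as were 16 probes without a value on every array. Spots of a probe were averaged, and signals were divided by the 75th percentile of the array, which lay at 1191 to 4086 scanner units and exceeded the lowest reliable signal by a factor of 75.2 to 136. They were then raised to the floor and taken to log2. Genes with 2 or more probes (8159 of 12602) were given by their brightest probe over all arrays. Names came from the RefSeq table of a newer cattle assembly, by accession without version, so no coordinates are given. Of 43637 probes, 26731 were named. Sequences of probes, transcripts or promoters were not used here.

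The 10956 genes with a reliable signal on both arrays of any condition entered limma version 3.58.1 (lmFit and eBayes, all 8 arrays, a mean per condition) in R version 4.3.3, and were called at a Benjamini-Hochberg adjusted p under 0.05 and at least 2-fold. For eSLCs against SCs the mean of the 3 origin means was used. A probe dim on every array of a condition was given as a bound against the common floor or its own higher signal, where every array of the brighter side was above background. The exact permutation test of 6 against 2 arrays cannot go below p = 0.0714, and the number of arrays limits the precision. The step was tested on simulated data. Python version 3.11.15, pandas version 2.3.3, numpy version 2.4.6 and matplotlib version 3.10.9 were used for reading and drawing.

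The members and lists were chosen with earlier results of these data known. All members are named, as are up to 3 rises and 3 falls per list among called genes detected on every array of the brighter side, and the 3 genes most correlated with the 2 members of widest range. Of the genes this rule names, 1 is not reported here. PLAUR, MMP12, A2M, FOS, JUN and the N7 genes are added after their values were seen. Alternatives were scaling to the median, quantile normalization, normexp with an offset of 50 on the median and background signals (mean signals were not used here), both filters on dim probes, a mean over the probes of a gene, the authors' values, SC arrays as 1 sample, only the conditions compared, a t-test named in the methods, slides as a block or taken singly, and leaving out each array.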

Additional observations from a re-analysis of the deposited data

Results flagged for a closer look

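MMP3 in line P4 lay apart from the other eSLC arrays. P4 read 99.1 and the next highest lines, N2 and P1, both 19.7, so the gap to the nearest array was 0.804 of the whole log2 range, above Dixon's critical value for 6 arrays. Chance puts about 1 group in 20 past this value when no reading is cut off. Here I2, I9 and N7 were raised to the floor of 13.3, which shortens the range. The ratio of 0.804 is thus an upper limit, and the rate of 1 in 20 does not hold. The ratio was also taken for each of the 10 members, so it is given as a description only. The P4 reading rests on 1 of the 3 MMP3 probes, since the others were at the floor in P4, and P4 was on slide 2.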

How the results depend on the processing

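No result changed direction under any alternative run. For eSLCs against SCs, MMP2, MMP14, TIMP1 and TIMP2 kept their calls in 19 of 21 alternatives each. They lost them within slide 1 and within slide 2, where fewer arrays were left and 0 members were called in each. Over all genes, 0 of 11237 were called within slide 1. Within slide 2, 216 were called higher and 248 lower of 11032. The calls of single origins against SCs were lost there too, for IVP- and NT-eSLCs within slide 1 and for NT- and PA-eSLCs within slide 2. With the SC arrays counted as 1 sample, 2 members were called in IVP-eSLCs and 3 in PA-eSLCs. The methods' t-test, after Benjamini-Hochberg adjustment, called 1 member in IVP-, 1 in NT- and 0 in PA-eSLCs against SCs, and without adjustment it called 1, MMP1, between PA- and IVP-eSLCs. With the authors' values 2 members were called between NT- and IVP-eSLCs, MMP9 (4.66, adjusted p = 0.00887) and MMP14 (5.05, adjusted p = 0.0113), the probes whose values differed between the sources, while the other MMP9 probes differed by 0.35 and 0.17 in the scanner signal.

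Leaving out 1 array at a time gave 4 to 5 members called for eSLCs against SCs, 3 to 5 for IVP-, 3 to 5 for NT- and 3 to 6 for PA-eSLCs against SCs, and 0 in each case between origins. The lowest count for PA-eSLCs came without P4 (3) and without SC P5 (3). A lone array of a condition was assumed to vary like the others. The call of MMP1 in PA-eSLCs was lost in 10 of 21 alternatives and that of TIMP2 in 8. No paired analysis was possible because the labels give every sample the same replicate number. A fit within 1 slide could not be had between PA- and IVP-eSLCs. With 2 arrays per condition, the differences of MMP9 and TIMP3, whose lines differ by over 6 on the log2 scale, were not called in the main fit. That of MMP9 was called without N7 and with the authors' values (3.44, limma adjusted p = 0.00127), so its call depended on 1 line and on the source. Signals near the floor of 13.3 give bounds only.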

Other observations

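Of 6 leukocyte genes, 3 rose in eSLCs, where 19.7% of all genes tested were called higher. With the mean of a gene's probes 1 was called higher. CD68 and LYZ were not called, with log2 differences of 0.41 and 0.05. AIF1, an actin-binding protein known from macrophages, was not above background in SCs and was at least 359-fold higher in eSLCs, at 11690 in I9, 16270 in N2 and 1847 to 3514 in the other lines. PTPRC, the phosphatase CD45, rose by 2.15 (SE 0.303), and read 9698 to 27270 in eSLCs and 3454 and 3214 in SCs. CD14 rose by 1.27 (SE 0.354). CSF1R, a defining receptor of macrophages, was not above background in any eSLC array. I9 and N2, in which AIF1 was highest, were also the lines highest in MMP9, TIMP3, MMP13, PLAUR and CTSL. PTPRC did not share this order and was highest in P1.

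In the authors' table the brightest probe of TIMP2 read 15860 in P1 and 43300 in P4, while another probe of the gene read 29430 in P1 and 11540 in P4. The scanner signal of these probes was 30580 and 28250 in P1 and 11500 and 12850 in P4. SERPINF2, the plasmin inhibitor, read 4697 in N7 and 36.2 to 281.8 in the other eSLC lines, and its difference from SCs was not called.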
